A study of Mus musculus with 21 samples.

Results

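Amino acid uptake and branched-chain amino acid transamination were followed through 10 genes, 8 transporter subunits (Slc7a5, Slc3a2, Slc1a5, Slc1a4, Slc7a1, Slc7a6, Slc38a1 and Slc38a2) and the aminotransferases Bcat1 and Bcat2. The genes were listed by name, with no threshold on their values, but they were chosen with earlier results of these data known. The shares of all genes given beside their counts are thus a background and not a test of the set. All 10 were found among the 15249 genes of the deposited log-scale table and the 47643 genes of the count table. Messenger RNA was counted at its 3′ end in 21 libraries of CD4+ T cells from the spleens of Tg4 Tiger Nr4a3-Tocky mice, with 3 mice in each of 7 groups. Every mouse, controls included, carried the Tg4 transgene, which encodes a T cell receptor specific for a peptide of myelin basic protein (MBP), the Tiger reporter (Il10-GFP) and the Nr4a3-Tocky Timer, a fluorescent protein that is blue when new and red when mature. The 6 immunised groups, written here as 0.8 µg or 80 µg at 4 h, 12 h or 24 h, received that amount of [4Y] MBP peptide under the skin without adjuvant, and the control group was unimmunised. The sorted cells were blue without red at 4 h (Blue+Red-), positive for both colours at 12 h (Blue+Red+) and red without blue at 24 h (Blue-Red+), so time and gate cannot be told apart, and the gate of the control cells and the age of the mice are not given in the sources used here. Both sexes were used.

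T cells that have met antigen enlarge and divide, and for this they import amino acids through carriers of the solute carrier (Slc) families. Slc7a5 (LAT1) and Slc3a2 (CD98 heavy chain) together form an exchanger that brings in leucine and other large neutral amino acids, often in exchange for glutamine, which enters through carriers such as Slc1a5, Slc38a1 and Slc38a2. Imported leucine is sensed by the kinase complex mTORC1, and leucine, isoleucine and valine can instead be transaminated by Bcat1 in the cytosol or Bcat2 in mitochondria, which passes their amino group to form glutamate.

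Library totals ranged from 2352800 to 6244279 counts, and a single gene, Gm42418, took 17.0% to 27.8% of them. Values below are normalised read counts, which are counts divided by a size factor for each library. They give a gene's share of the measured RNA, in which fewer cells of a type and less RNA per cell cannot be told apart, and counts of different genes are not compared with each other. A gene is called when its Benjamini-Hochberg adjusted p from DESeq2 is under 0.05 and its shrunken log2 fold change is past 1 in either direction. The 6 comparisons with the control share the same 3 control libraries. The CD4 T cell list (6 of 6 genes counted in every library) summed to 497 to 526 CPM (counts scaled to a common library size) in the 80 µg 4 h group and to 1540 to 1654 CPM in the control. With 0.8 µg it was 908 to 958 at 4 h, 770 to 805 at 12 h and 1139 to 1370 at 24 h. With 80 µg it was 751 to 808 at 12 h and 1269 to 1375 at 24 h. At 4 h, 3 of the 6 genes were called lower with 80 µg than with 0.8 µg. The B cell list (5 genes, of which Cd79a was at 0 in 17 libraries) summed to 34.9 to 71.7 CPM in the control and at most 39.6 CPM in any immunised library, and its part in the comparisons with the control was not tested. Of the myeloid list (5 genes), Cd14 had 1 count in all 21 libraries, and the list summed to 8.93 to 15.6 CPM in the control and to 0.462 to 28.2 CPM in the immunised groups. The CD8 T cell list (Cd8a and Cd8b1) summed to 43.6 to 51.3 CPM with 0.8 µg at 12 h and to 13.1 to 22.7 CPM with 80 µg, where both genes were called lower, and the erythroid list (5 genes) ranged from 5.31 to 212 CPM with overlap between the control and every immunised group. The part of these lists in the results was not tested. Replicate 3 of the 0.8 µg 12 h group stood apart from the other two, with a chi-square per gene of 14.8 and 14.4 against them and 3.35 between them, and with Gm42418 at 25.7% of counts against 17.0% and 18.2%. To a lesser degree so did replicate 2 of the 80 µg 12 h group (8.70 and 9.49 against 4.87, with Gm42418 at 24.5% against 20.2% and 19.9%). That library had the lowest Slc7a5, Slc3a2, Slc7a6, Slc38a1 and Slc38a2 values of its group and the highest Slc1a5, Bcat1 and Bcat2 values.

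At 4 h, 8 of the 10 genes were higher than in the control and 1, Bcat2, was lower at each dose, while Slc38a2 was not called. Over all genes tested, 17.3% were called higher and 23.4% lower with 0.8 µg, and 18.4% and 25.1% with 80 µg. At 12 h, 7 of the 10 were called higher with 0.8 µg (17.2% of all genes, and 6 of 10 without replicate 3 of that group) and 6 with 80 µg (17.8%, and 7 of 10 without replicate 2 of that group), and 0 were called lower against 20.5% and 20.1% of all genes. Without the fold threshold 1 gene, Slc38a2, was lower at 12 h at each dose (27.9% and 27.4% of all genes), as it was by unadjusted p and in edgeR. At 24 h, 1 gene was called higher, Bcat1, at each dose, against 11.5% of all genes with 0.8 µg and 12.3% with 80 µg, and 0 were called lower (5.84% and 7.91%). By the adjusted p alone 4 genes differed from the control at 24 h at each dose (36% and 39.1% of all genes), Bcat1, Slc7a1 and Slc38a1 upward and Slc38a2 downward, the last also by unadjusted p and in edgeR. The median shrunken log2 fold change of the 10 genes was 2.30 at 4 h, 1.17 at 12 h and 0.27 at 24 h with 0.8 µg, and 2.64, 1.18 and 0.19 with 80 µg. The medians over all genes tested in those comparisons lay between -0.15 and 0.

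**Figure D1:**
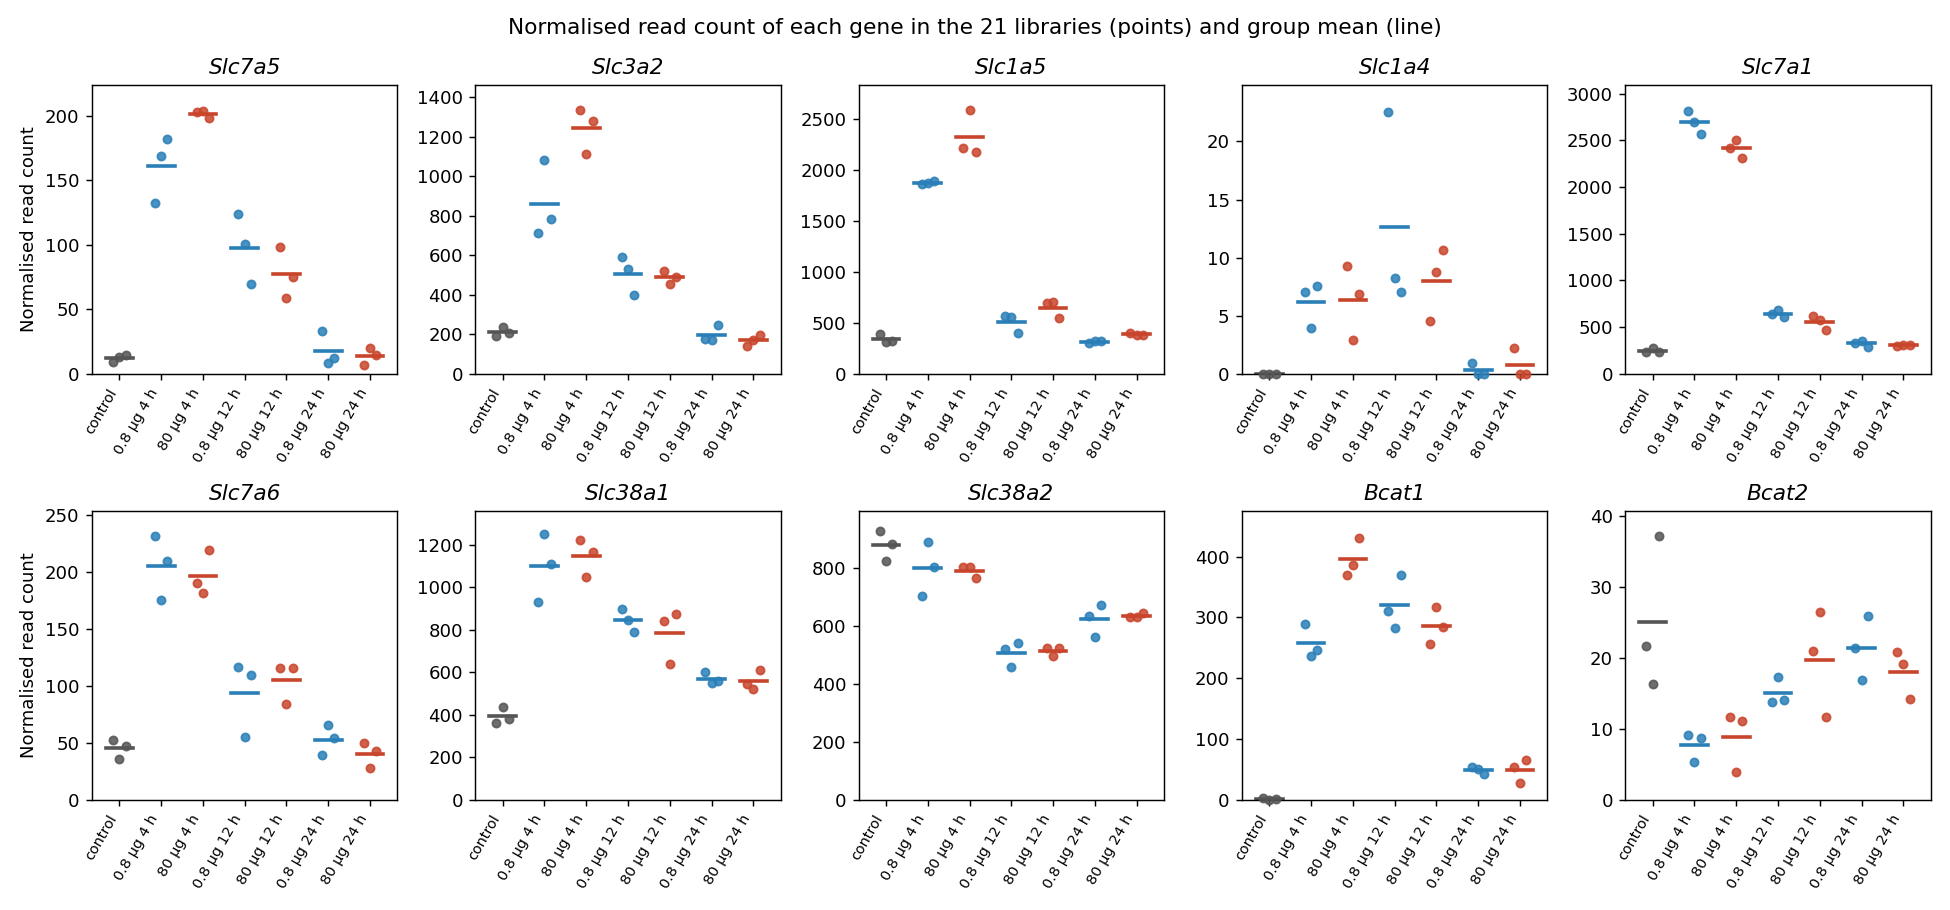
Normalised read count (vertical axis, from 0, scaled separately for each gene) in each of the 21 libraries (points) and the mean of each group of 3 (lines), with the control in grey, 0.8 µg in blue and 80 µg in red. Slc7a5, Slc3a2, Slc1a5, Slc7a1, Slc7a6 and Slc38a1 have their highest group means at 4 h and lower means at 12 h and 24 h, Bcat1 is near 0 only in the control, and Slc38a2 and Bcat2 have their highest mean in the control.

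Slc7a5, the transporting subunit of the leucine exchanger, lies on chromosome 8 of GRCm38, from 121881150 to 121907694 on the minus strand. Its normalised counts were 9.28, 13.2 and 14.3 in the 3 control libraries. With 0.8 µg they were 132, 169 and 182 at 4 h, 123.5, 100.8 and 69.3 at 12 h, and 33.1, 8.39 and 12.4 at 24 h. With 80 µg they were 202.5, 203 and 198 at 4 h, 98.7, 58.7 and 74.8 at 12 h, and 6.57, 19.9 and 14.8 at 24 h. The lowest value at 12 h with 0.8 µg was that of replicate 3, as it was for Slc3a2, Slc1a5, Slc7a1, Slc38a1 and Slc1a4. The same library had the highest value of its group for Bcat1 and Slc38a2. Without this library the rises of Slc7a5, Slc3a2 and Slc1a5 at that time were 3.08, 1.39 and 0.72 on the log2 scale. Every library at 4 h and 12 h was above every control library, and the 24 h libraries overlapped with the controls. The gene rose at 4 h by 3.59 on the log2 scale with 0.8 µg (SE 0.37, adjusted p = 4.72e-21) and by 3.91 with 80 µg (SE 0.36, adjusted p = 5.93e-25). At 12 h it was still higher by 2.89 (adjusted p = 6.24e-14) and 2.55 (adjusted p = 4.49e-11). At 24 h the difference from the control was 0.52 with 0.8 µg (adjusted p = 0.317) and 0.20 with 80 µg (adjusted p = 0.709), and neither passed the test. A single library, replicate 1 of the 0.8 µg 24 h group, held the 33.1 counts and the others of that group were within the control range or just below it.

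Slc3a2, the heavy chain that carries Slc7a5 and related light chains to the cell surface, lies on chromosome 19 from 8706882 to 8723369 on the minus strand. Control libraries had 194, 237 and 207 normalised counts. With 0.8 µg the counts were 712, 1080.2 and 782 at 4 h, 590.1, 533 and 399 at 12 h, and 175, 173 and 248 at 24 h. With 80 µg they were 1333, 1112 and 1282 at 4 h, 519.8, 456 and 491 at 12 h, and 142, 171 and 196 at 24 h. All libraries at 4 h and 12 h lay above the control and those at 24 h overlapped with it. The rise over control was 1.99 on the log2 scale with 0.8 µg (SE 0.17, adjusted p = 2.12e-30) and 2.53 with 80 µg (SE 0.17, adjusted p = 8.1e-49) at 4 h. By 12 h it was 1.25 and 1.19, both called, and at 24 h the differences were -0.10 (adjusted p = 0.701) and -0.32 (adjusted p = 0.151). With size factors made from library totals the latter was -0.55 (adjusted p = 0.0225). In the order of group means, the 80 µg and 0.8 µg groups at 4 h came first and differed from each other (adjusted p = 0.0115), whereas the 12 h groups did not pass the test against each other (adjusted p = 0.927). The control came next, below both 12 h groups (adjusted p = 2.34e-11 against 80 µg), and its step to the 24 h groups (adjusted p = 0.701) and the step between those (adjusted p = 0.61) did not pass.

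Among the carriers of glutamine and small neutral amino acids, Slc1a5, Slc1a4 and Slc38a1 were higher at 4 h and Slc38a2 was not. Slc1a5 (ASCT2, an exchanger of glutamine, alanine, serine and cysteine) lies on chromosome 7 from 16781340 to 16798274 on the plus strand. Its normalised counts were 394, 311 and 319.8 in the control, 1860.4, 1875 and 1888 with 0.8 µg at 4 h, and 2214, 2585 and 2177 with 80 µg at 4 h. The 3 groups did not overlap. The increase over control at 4 h was 5.48-fold with 0.8 µg (log2 2.44, SE 0.12, adjusted p = 1.37e-85) and 6.79-fold with 80 µg (log2 2.75, SE 0.12, adjusted p = 2.12e-109). At 12 h the means had dropped to 509 ± 92.2 (SD, n = 3) with 0.8 µg and 649 ± 85.8 with 80 µg, still above the control by 0.57 (adjusted p = 2.02e-05) and 0.92 (adjusted p = 1.26e-12) but under the fold threshold. The value with 80 µg was past it without control replicate 1 (1.03), without replicate 3 of its own group (1.03) and in a fit to those 6 samples (1.01). At 24 h the means were 315 ± 12.8 and 388 ± 9.86, and neither differed from the control by the test (adjusted p = 0.515 and 0.275).

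Slc38a1 (SNAT1), a sodium-coupled carrier of glutamine and other small neutral amino acids, lies on chromosome 15 from 96571418 to 96642913 on the minus strand. It had 392 ± 40.4 normalised counts in the control, 1098 ± 159.7 and 1146 ± 88.0 at 4 h with 0.8 µg and 80 µg, 844 ± 55.1 and 785 ± 127 at 12 h, and 568 ± 27.1 and 559 ± 47.0 at 24 h (SD, n = 3 each). No library of any immunised group overlapped with the control, where the highest value was 437 and the lowest immunised value was 520.3. The rise at 4 h was 1.48 and 1.54 on the log2 scale (SE 0.13 and 0.13), and at 12 h it was 1.10 with 0.8 µg and 0.99 with 80 µg. That last value missed the fold threshold by a small margin, and it was called with TMM scaling (1.02), with edgeR (1.03), in a fit to those 6 samples (1.08), without control replicate 2 (1.07) and without replicate 2 of its own group (1.13). At 24 h the differences of 0.53 (adjusted p = 0.00023) and 0.51 (adjusted p = 0.000363) passed the adjusted p alone, and with size factors made from library totals the value with 80 µg was 0.27 (adjusted p = 0.143).

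Slc38a2 (SNAT2), the related carrier that cells are known to make more of when amino acids run short, lies on the same chromosome from 96687392 to 96699730 on the minus strand. It went the other way. Control libraries had 927, 822 and 884 normalised counts, and the 4 h libraries had 705, 889 and 804 with 0.8 µg and 804, 803 and 766 with 80 µg. The differences at 4 h, -0.14 (adjusted p = 0.23) and -0.15 (adjusted p = 0.178), did not pass the test, whereas with size factors made from library totals they were -0.29 (adjusted p = 0.0215) and -0.31 (adjusted p = 0.0125). At 12 h the counts were 519, 457 and 540.1 with 0.8 µg and 523, 497 and 523 with 80 µg, all below every control library. The decrease at 12 h was 42.6% with 0.8 µg, where the shrunken log2 value fell by 0.80 (SE 0.10, adjusted p = 5.06e-15), and with 80 µg it fell by 0.77 (SE 0.10, adjusted p = 3.12e-14). At 24 h the gene was at 622 ± 57.2 and 635 ± 7.92, still lower than control by the adjusted p (3.37e-06 and 1.04e-05) and higher than at 12 h by 0.30 at both doses (adjusted p = 0.00688 and 0.00543). That last step did not pass with size factors made from library totals (adjusted p = 0.217 and 0.531) or in fits to only the 6 samples compared (adjusted p = 0.217 and 0.113), nor with 0.8 µg without replicate 2 at 12 h (adjusted p = 0.0825) or replicate 3 at 24 h (adjusted p = 0.0543). None of these differences reached the fold threshold.

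Slc1a4 (ASCT1), a relative of Slc1a5 that carries serine, alanine and threonine, lies on chromosome 11 from 20302180 to 20332713 on the minus strand. It was near the limit of detection, and its transcription start is shown because the start itself is crossed by the element TGATGCAA, to which the amino acid stress factor ATF4 with C/EBP partners is known to bind. On the gene's strand the element reads TTGCATCA (in capitals), from 4 bases before the RefSeq start to transcribed base 4. It is present on either strand in 0.895% of 32851 RefSeq promoter windows of 300 bases (250 before the start and 50 after) and did not overlap another motif searched here.
Slc1a4, chr11:20332704-20332733, GRCm38.p6, minus strand: cagcgtgcctcctgcgTTGCATCAtctcca
Slc1a4 had 0 counts in all 3 control libraries. With 0.8 µg it had 7.07, 3.95 and 7.55 normalised counts at 4 h and 22.5, 8.27 and 7.04 at 12 h, and with 80 µg 9.26, 2.91 and 6.86 at 4 h and 4.57, 8.80 and 10.7 at 12 h. At 24 h, 4 of the 6 libraries were at 0 and the other two had 0.973 and 2.19. Set against a floor of 3 counts per control library, the gene was at least 1.78-fold higher at 4 h with 0.8 µg (adjusted p = 0.00189) and at least 1.83-fold with 80 µg (adjusted p = 0.00163). Replicate 2 of each 4 h group had 3 counts, the floor itself. With a library left out these 4 h bounds went down to 1.59-fold (0.8 µg, without replicate 3) and 1.41-fold (80 µg, without replicate 1). At 12 h it was at least 3.63-fold (adjusted p = 0.000111) and at least 2.31-fold higher (adjusted p = 0.000705). The first of these 12 h bounds rested on replicate 1 of the 0.8 µg group, the library with 22.5 counts, and without it was at least 2.21-fold (adjusted p = 0.00196). No fold is given at 24 h, where both groups were at or under the floor.

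Slc7a1 (CAT-1), the main carrier of the cationic amino acids arginine and lysine, lies on chromosome 5 from 148327410 to 148399904 on the minus strand. The AP-1 element TGACTCA, bound by Fos and Jun proteins, lies between 123 and 117 bases before one of its 2 RefSeq starts. The stretch around it is shown as the upstream sequence of a gene that rose in every library at 4 h, with the element in capitals. The element is found on either strand in 5.2% of the same promoter windows and overlapped none of the other motifs searched. Among the genes here that have windows only Slc7a1 has it, and its part in the rise was not tested.
Slc7a1, chr5:148399981-148400067, GRCm38.p6, minus strand: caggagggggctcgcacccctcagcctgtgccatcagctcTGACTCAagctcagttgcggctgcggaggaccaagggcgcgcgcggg
Slc7a1 had 235.0, 276 and 234 normalised counts in the control. With 0.8 µg it had 2818, 2703 and 2567 at 4 h, 637, 683 and 611 at 12 h, and 333, 356 and 289 at 24 h. The 80 µg libraries had 2424, 2506 and 2313 at 4 h, 624, 577 and 474 at 12 h, and 304, 305 and 309 at 24 h. Every immunised library was above every control library at all 3 times. The rise at 4 h was 10.8-fold with 0.8 µg (log2 3.43, SE 0.11, adjusted p = 2.89e-227) and 9.69-fold with 80 µg (log2 3.27, SE 0.11, adjusted p = 5.94e-207). At 12 h the gene was 2.59-fold and 2.24-fold above the control, and by 24 h the differences of 0.39 (adjusted p = 0.00274) and 0.30 (adjusted p = 0.0249) passed the adjusted p but not the fold threshold. The 24 h value with 80 µg did not pass without control replicate 1 (adjusted p = 0.113) or 3 (0.0904), without replicate 2 (0.053) or 3 (0.066) of its own group, or in a fit to those 6 samples (0.0942). With size factors made from library totals those 24 h differences were 0.25 (adjusted p = 0.0934) and 0.06 (adjusted p = 0.717).

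Slc7a6 (y+LAT2), a light chain that also pairs with Slc3a2 and exchanges arginine for neutral amino acids, lies on chromosome 8 from 106168857 to 106198706 on the plus strand. Its normalised counts were 52.6, 35.5 and 47.1 in the control, 231, 175 and 209 with 0.8 µg at 4 h, and 189.8, 181 and 219 with 80 µg at 4 h. It rose by 2.15 (SE 0.27, adjusted p = 1.98e-14) and 2.09 (SE 0.27, adjusted p = 9.3e-14) on the log2 scale, with no overlap with the control. At 12 h it was higher by 1.02 with 0.8 µg (adjusted p = 0.000658) and 1.19 with 80 µg (adjusted p = 4.94e-05). The 12 h value with 0.8 µg stood just past the fold threshold, and it was 0.83 without replicate 1 of that group, 0.90 without replicate 3 and 0.86 without control replicate 2. Replicate 2 of that group had 54.9 counts, close to the highest control library, against 117 and 109 in the others. At 24 h the values were 0.22 (adjusted p = 0.586) and -0.18 (adjusted p = 0.665).

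Bcat1, the cytosolic branched-chain aminotransferase, which is low in most resting adult tissues, lies on chromosome 6 from 144993835 to 145076184 on the minus strand. The core of the site bound by NFAT, the calcium-regulated factor downstream of the T cell receptor, is GGAAAA, and it occurs between 136 and 131 bases before one of the 2 RefSeq starts of Bcat1. These 6 letters are common, present on either strand in 23.4% of the windows. Among the 7 of the 10 genes that have windows, only Bcat1 has them. Bcat1 went from at most 2 counts in a control library to at least 237 normalised counts in every library at 4 h. The stretch is shown with the element in capitals, and the part of the element in this rise was not tested.
Bcat1, chr6:145076248-145076333, GRCm38.p6, minus strand: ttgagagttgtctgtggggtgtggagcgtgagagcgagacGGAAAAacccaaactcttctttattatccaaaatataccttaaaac
The E-box CACGTG, the site of Myc and its partners, was searched on both strands as well and is present in 7.15% of the windows. These letters occur in none of the 11 windows that RefSeq gives for 7 of the 10 genes, which says nothing more than that.

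In the control, Bcat1 had 2, 0 and 1 counts. With 0.8 µg its normalised counts were 289, 237 and 246 at 4 h, 309.8, 283 and 369.8 at 12 h, and 53.5, 50.4 and 41.3 at 24 h. The 80 µg libraries had 370.4, 386 and 431 at 4 h, 257, 317 and 285 at 12 h, and 53.7, 28.0 and 65.3 at 24 h. Every immunised library stood far above the control, and all 24 h libraries lay below all 4 h and 12 h libraries. Against the floor of 3 counts per control library, Bcat1 was at least 74.1-fold higher at 4 h, at least 92.4-fold at 12 h and at least 13.9-fold at 24 h with 0.8 µg (adjusted p = 3.6e-19, 1.28e-20 and 3.64e-09). With 80 µg the bounds were at least 114-fold, at least 82.4-fold and at least 14.1-fold higher (adjusted p = 2.96e-22, 7.04e-20 and 2.61e-09). Bcat1 was the only one of the 10 genes called at 24 h. Its exons overlap those of Gm26666 on the opposite strand, and the strand setting of the counting step is not given in the sources used here.

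Bcat2, the mitochondrial aminotransferase, lies on chromosome 7 from 45570153 to 45589711 on the plus strand, and its exons overlap the opposite-strand gene 0610005C13Rik. Its counts were low, with 21.6, 16.2 and 37.1 normalised counts in the control, 9.08, 5.27 and 8.63 with 0.8 µg at 4 h, and 11.6, 3.87 and 11.1 with 80 µg at 4 h. Every 4 h library was below every control library. At 4 h Bcat2 fell by 1.54 on the log2 scale with 0.8 µg (SE 0.49, adjusted p = 0.00436) and fell by 1.38 with 80 µg (SE 0.48, adjusted p = 0.00813). Both calls rested on replicate 3 of the control, the library with 37.1 counts: without it the values were -1.18 (adjusted p = 0.0545) and -1.02 (adjusted p = 0.0872). The call with 80 µg was also lost without replicate 2 of the 80 µg 4 h group (-1.03, adjusted p = 0.0781). At 12 h and 24 h the group means were 15.0 to 21.3 counts and did not pass the test against the control. Bcat1 and Bcat2 thus had opposite signs at 4 h, in libraries where the counts behind Bcat2 were few.

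**Figure D2:**
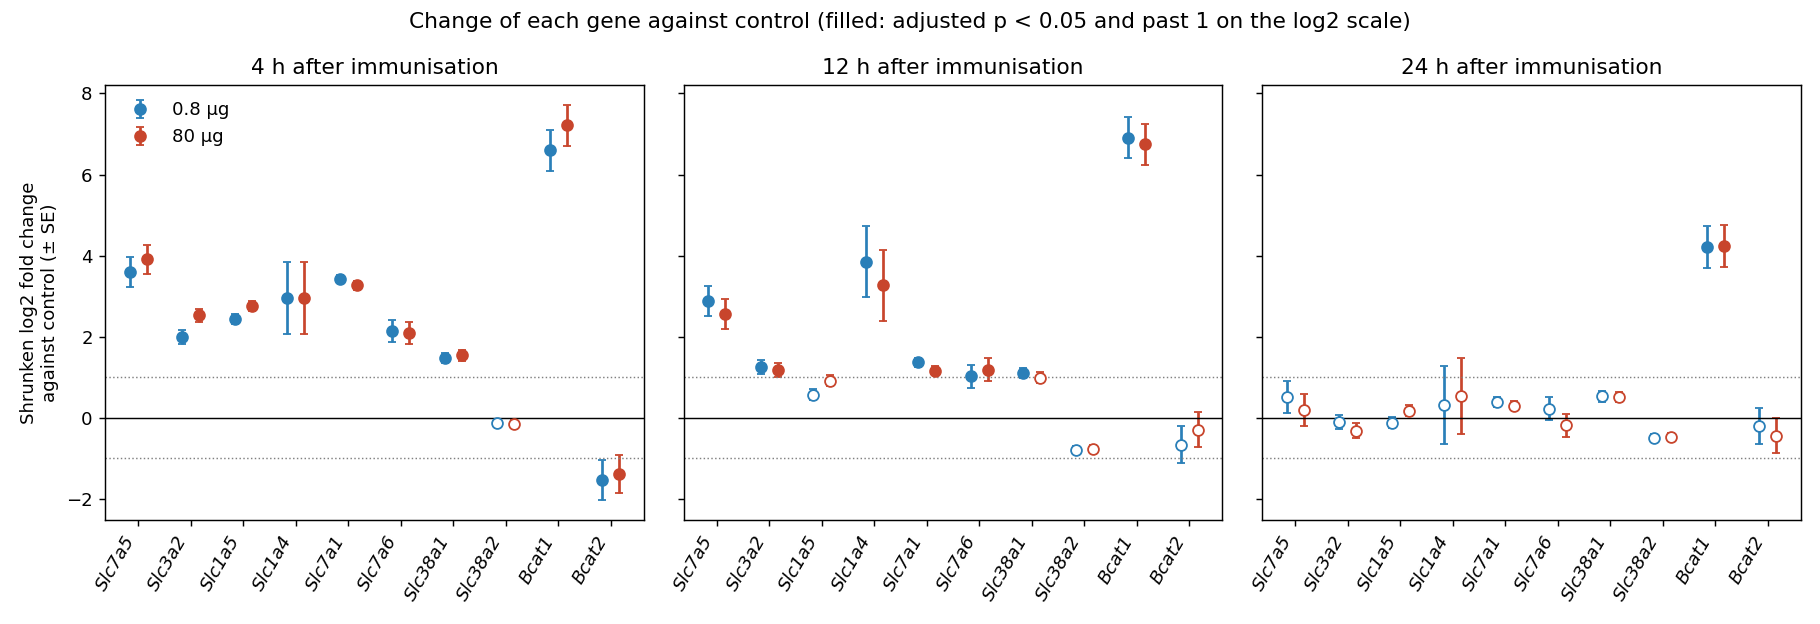
Shrunken log2 fold change against the control (vertical axis) of the 10 genes at 4 h, 12 h and 24 h, with 0.8 µg in blue, 80 µg in red and bars for 1 standard error. Filled points are called and dotted lines mark a change of 1. For Bcat1 and Slc1a4 the control is at or under 3 counts per library, so the plotted size depends on the shrinkage, and at 24 h only Bcat1 is filled.

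The 4 comparisons between neighbouring times asked how the 10 genes moved once the response was under way. From 4 h to 12 h, 3 genes were called lower with 0.8 µg (7.98% of all genes) and 4 with 80 µg (9.1%), and 0 were called higher (12.6% and 15.7% of all genes). The adjusted p alone was passed by 7 and 8 genes (39.1% and 42.9% of all genes), all downward. At an unadjusted p, 0 genes were higher with 0.8 µg and 1 with 80 µg, Bcat2 (log2 1.09, adjusted p = 0.0507), and edgeR called 0 higher at either dose. The share of all genes passing an unadjusted p was not counted, so the unadjusted counts have no background here. Bcat2 was called with TMM scaling (adjusted p = 0.0495), a stricter filter (0.0374), library total scaling (0.0285) and without replicate 3 of the 80 µg 12 h group (0.0237). Slc7a1, Slc1a5 and Slc7a6 accounted for the calls with 0.8 µg, and Slc7a1, Slc1a5, Slc7a5 and Slc3a2 for those with 80 µg. The fall of Slc7a6 (log2 -1.13) came under the fold threshold without replicate 2 of the 0.8 µg 12 h group (-0.86) and with library total scaling (-0.98), which left 2 genes called. Slc7a1 fell 4.18-fold with 0.8 µg (adjusted p = 8.52e-101) and 4.32-fold with 80 µg (adjusted p = 4.03e-105). Slc1a5 fell 3.67-fold (adjusted p = 5.7e-53) and 3.58-fold (adjusted p = 5.14e-53). Bcat1 did not follow them with 0.8 µg, where the 12 h libraries overlapped with those at 4 h (log2 0.31, adjusted p = 0.184, and 0.46 with adjusted p = 0.0236 under library total scaling), and with 80 µg it was lower by less than the fold threshold (log2 -0.46, adjusted p = 0.0286). The latter did not pass with library total scaling (adjusted p = 0.0921) or without replicate 2 (0.0609) or 3 (0.13) at 4 h or replicate 1 (0.124) or 3 (0.0714) at 12 h.

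From 12 h to 24 h, 4 genes were called lower with 0.8 µg (9.48% of all genes) and 5 with 80 µg (10.5%), and 0 were called higher (17.1% and 16.7%). The adjusted p alone was passed by 9 genes at each dose (44% and 44.7%), of which 8 were lower and 1 was higher. Slc38a2 was higher at 24 h at both doses by less than the fold threshold, and it was the 1 gene that was higher at an unadjusted p and in edgeR without that threshold. Slc7a5, Slc3a2, Slc1a4 and Bcat1 were called at both doses, and Slc7a6 with 80 µg. Slc7a1 with 0.8 µg was just under the fold threshold (log2 -0.98, adjusted p = 9.39e-20). It was called in 5 of 15 alternatives, the adjusted p alone among them, with values down to -1.12. Slc7a1 with 80 µg (log2 -0.87) and Slc7a6 with 0.8 µg (-0.80) were each called in 2 of 15, again with the adjusted p alone among them. Slc7a5 fell 5.47-fold with 0.8 µg (adjusted p = 3.34e-11) and 5.42-fold with 80 µg (adjusted p = 5.38e-11). Bcat1 fell 6.60-fold (adjusted p = 5.21e-35) and 5.83-fold (adjusted p = 1.22e-32). Slc1a4, at or under the floor at 24 h, was at least 4.30-fold lower than at 12 h with 0.8 µg (adjusted p = 0.00105, and at least 2.61-fold with adjusted p = 0.0111 without replicate 1 at 12 h) and at least 3.28-fold lower with 80 µg (adjusted p = 0.00767), and the second was lost without replicate 3 of the 80 µg 24 h group (adjusted p = 0.0504). On the log2 scale Slc7a1 and Slc1a5 had most of their decrease by 12 h, and Slc7a5, Slc3a2 and Bcat1 kept more of it for the later step, which is a description of their means and was not tested between genes.

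The comparison of the 2 doses at the same time asked whether the larger amount of peptide changed these genes in cells taken through the same gate. At 4 h, 12 h and 24 h, 0 of the 10 genes were called (9 were tested at 4 h and 24 h, where Slc1a4 had no adjusted p), against 5.85%, 2.79% and 1.56% of all genes. By the adjusted p alone, 2 genes were higher with 80 µg at 4 h (5.81% of all genes were) and 0 at 12 h and 24 h (6.27% and 5.93% in either direction). With an unadjusted p, 3 genes were higher and 0 lower at 4 h, 1 was higher and 1 lower at 12 h, and 1 was higher at 24 h. In edgeR, 0 were called at every time with the fold threshold. By its adjusted p alone, 2 were higher at 4 h and 0 at 12 h and 24 h, and the share of all genes in edgeR was not counted. The share of all genes passing an unadjusted p was not counted, so these unadjusted counts cannot be set against a background. Bcat1 was 1.54-fold higher with 80 µg at 4 h (95% interval of the log2 difference 0.25 to 0.99, adjusted p = 0.0108) and Slc3a2 was 1.45-fold higher (0.22 to 0.85, adjusted p = 0.0115). In both, the lowest 80 µg library was above the highest 0.8 µg library. In the same comparison 3 of the 6 genes of the CD4 T cell list were called lower, and their part was not tested. Neither the pass of Bcat1 nor that of Slc3a2 held throughout. For Bcat1 it was lost without replicate 2 (adjusted p = 0.0752) or 3 (0.0717) of the 0.8 µg group or replicate 3 of the 80 µg group (0.095). For Slc3a2 it was lost without replicate 1 (0.14) or 3 (0.0956) of the 0.8 µg group, without replicate 1 (0.0916) or 3 (0.0629) of the 80 µg group, in a fit to those 6 samples (0.058) and with library total scaling (0.0597).

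Slc1a5 was the one gene with a higher mean at 80 µg at all 3 times. The log2 difference was 0.31 at 4 h (95% interval 0.09 to 0.54, adjusted p = 0.0556), 0.35 at 12 h (0.11 to 0.59, adjusted p = 0.0633) and 0.30 at 24 h (0.05 to 0.55, adjusted p = 0.17), and it did not pass the adjusted p at any of them. At 4 h it did pass with TMM scaling (adjusted p = 0.0461), with the replicate block (0.0463) and in a fit to those 6 samples (0.00101). At 12 h it passed with TMM scaling (0.0428), with the replicate block (0.0431), without replicate 1 of the 0.8 µg group (0.0337) and without replicate 3 of the 80 µg group (0.0104). Slc7a1 had the lower mean at 80 µg at all 3 times, by -0.16 at 4 h (-0.34 to 0.02, adjusted p = 0.312), -0.21 at 12 h (-0.40 to -0.01, adjusted p = 0.256) and -0.09 at 24 h (-0.30 to 0.12, adjusted p = 0.743). For Slc7a5 the 2 groups did not overlap at 4 h, and the difference of 0.32 did not pass the test (-0.26 to 0.90, adjusted p = 0.606). For Slc38a2 the intervals at the 3 times stayed between -0.20 and 0.23. Slc1a4 and Bcat2 had too few counts for a narrow interval, and at 4 h that of Bcat2 ran from -0.94 to 1.31.

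**Figure D3:**
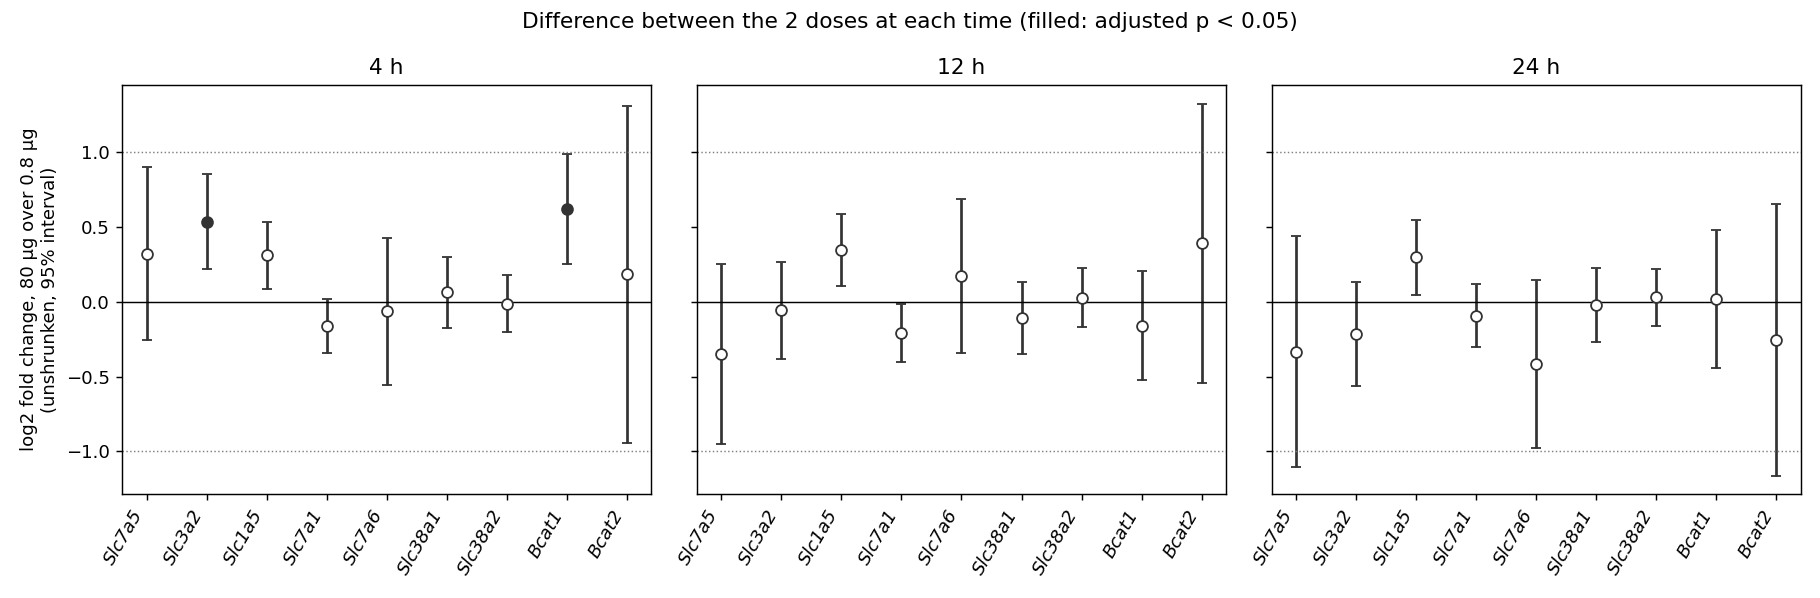
Log2 fold change of 80 µg over 0.8 µg (vertical axis, unshrunken, with 95% intervals) for 9 of the 10 genes at 4 h, 12 h and 24 h. Slc1a4 is left out because its intervals reach beyond the axis. Filled points (Slc3a2 and Bcat1 at 4 h) pass an adjusted p of 0.05, dotted lines mark a difference of 1, and Slc1a5 lies above 0 at all 3 times.

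A likelihood ratio test on the 18 immunised libraries asked whether doses differed by unequal amounts at the 3 times, and 10.4% of 9958 genes passed it. Of the 10 genes, of which Slc1a4 had no adjusted p, 1 passed, Slc3a2 (adjusted p = 0.0476), with a dose effect of 0.53 on the log2 scale at 4 h, -0.06 at 12 h and -0.21 at 24 h. Bcat1 was next, at 0.62, -0.16 and 0.02 (adjusted p = 0.0634), and it passed with library total scaling (0.0221) and without replicate 3 of the 0.8 µg 24 h group (0.0449) or replicate 2 (0.0176) or 3 (0.0105) of the 80 µg 24 h group. Slc1a5, with nearly equal dose effects, had an adjusted p of 0.986. The Slc3a2 result lay close to the threshold and was lost in 15 of 24 alternatives, most of them leaving out 1 library, with adjusted p values between 0.00218 and 0.204 over all 24.

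Genes around these 10 were counted from lists of other amino acid carriers and of the pathways that use what is carried. These lists, too, were chosen with earlier results of these data known. Of 18 other plasma membrane or lysosomal amino acid carriers in the table, 12 had an adjusted p at 4 h. At each dose 4 were called lower (Slc43a2, Slc38a6, Slc38a9 and Slc36a1) and no other was called. Of all genes, 23.4% and 25.1% were called lower and 17.3% and 18.4% higher. The median log2 fold change of the carriers was -0.17 with 0.8 µg and -0.34 with 80 µg. Slc43a2 (LAT4), a facilitative carrier of branched-chain amino acids and methionine, went from 138 ± 24.6 normalised counts in the control to group means at 4 h of 8.16 ± 1.82 with 0.8 µg and 5.62 ± 4.20 with 80 µg, SD over 3 mice, and fell by 3.87 and fell by 4.41 on the log2 scale. It was at 110 ± 7.75 and 158.3 ± 18.5 at 24 h, when it did not differ from the control (adjusted p = 0.476 and 0.681). At 12 h it was called between doses, as no other of the 9 carriers tested there was (2.79% of all genes), 51.2 ± 29.0 with 80 µg against 18.6 ± 11.1 with 0.8 µg (log2 1.36, adjusted p = 0.00659). Slc38a9, a lysosomal arginine sensor, fell by 2.49 and fell by 2.66 at 4 h. Slc16a10 (TAT1), a carrier of aromatic amino acids, was called higher with 80 µg at 12 h (log2 1.38, adjusted p = 0.0204) and lower with 0.8 µg at 24 h (log2 -1.38, adjusted p = 0.0449).

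The enzymes that break down branched-chain amino acids after transamination had more members called lower than higher at 4 h. Of 22 genes in the table, 10 were called lower and 1 higher with 0.8 µg, and 13 lower and 2 higher with 80 µg, with a median of -1.27 and -1.49, beside 23.4% and 25.1% of all genes called lower and 17.3% and 18.4% higher. Mcee (methylmalonyl-CoA epimerase) went from 27.0 normalised counts on average in the control to at most 3 counts in any library at 4 h, at least 7.92-fold lower with 0.8 µg (adjusted p = 6.38e-07) and at least 9.04-fold with 80 µg (adjusted p = 2.2e-06). Ivd (isovaleryl-CoA dehydrogenase, of the leucine pathway) went from 152 ± 10.5 normalised counts in the control to group means at 4 h of 15.8 ± 7.66 with 0.8 µg and 16.8 ± 8.27 with 80 µg, and Ppm1k, the phosphatase that activates the branched-chain ketoacid dehydrogenase, from 131 ± 16.6 to 13.8 ± 7.52 and 11.7 ± 5.30. Dld, a subunit that this complex shares with other dehydrogenases, rose by 1.51 and 1.55, and Dbt, the acyltransferase subunit of the complex, rose with 80 µg from 53.8 to 113 normalised counts on average (adjusted p = 1.78e-05). At 12 h, 4 of the 22 were called lower with 0.8 µg and 6 with 80 µg, and 1 higher at each dose, beside 20.5% and 20.1% of all genes lower and 17.2% and 17.8% higher. At 12 h Ppm1k was still lower by -1.77 and -1.44 on the log2 scale, Ivd by -1.26 with 0.8 µg, and Acadsb (a dehydrogenase of the isoleucine pathway) by -1.63 with 80 µg. At 24 h, 2 were lower at each dose (5.84% and 7.91% of all genes), among them Acadsb (-1.02 and -1.66) and, with 80 µg, Mccc1 of the leucine pathway (-1.53), and 1 was higher with 0.8 µg (11.5%). From 4 h to 12 h, 11 of the 22 rose with 0.8 µg and 10 with 80 µg (12.6% and 15.7% of all genes), and no member was called lower (7.98% and 9.1%). Among those that rose most were Mut, the mutase that acts after Mcee (2.74 and 2.57), and Mcee itself, at least 6.72-fold and at least 6.24-fold higher. Between doses, 1 member was called at each time, of 22, 22 and 21 tested. It was a different gene each time and lower with 80 µg, and 0 were called higher. The genes were Pccb at 4 h (log2 -1.04, adjusted p = 0.0489), Hibch at 12 h (-1.17, 0.0479) and Mccc1 at 24 h (-1.51, 0.000166). These calls were not checked in alternative fits. Of all genes, 5.85%, 2.79% and 1.56% were called in either direction. Mccc1 also passed the likelihood ratio test (adjusted p = 0.0465), as did 10.4% of all genes.

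The amino acid sensing branch of mTORC1 had calls in both directions. With 0.8 µg, 4 of 34 genes rose and 8 fell at 4 h, and with 80 µg 7 rose and 8 fell, with medians of 0.15 and -0.04. Of all genes, 17.3% and 18.4% were called higher and 23.4% and 25.1% lower, so the list's share of lower calls was near the background. Sesn1, a sestrin that holds mTORC1 back when leucine is low, went from 272 ± 41.5 normalised counts in the control to 13.5 ± 8.92 with 0.8 µg and 12.9 ± 6.53 with 80 µg at 4 h, stayed at 16.1 ± 4.12 and 12.0 ± 5.47 at 12 h, and was at 163 ± 49.8 and 157 ± 2.83 at 24 h. Sesn3, its relative, fell by 2.14 with 0.8 µg at 4 h, and Nprl2, a subunit of the GATOR1 complex, fell by 2.03 with 80 µg. Fnip2, a partner of folliculin, rose at 4 h by 3.66 with 0.8 µg and by 4.17 with 80 µg, from a control in which libraries ranged from 0 to 8.57 normalised counts. Of the GATOR2 complex, Mios rose by 1.30 with 0.8 µg and Seh1l by 1.37 with 80 µg. Between doses, 0 of the 33, 33 and 32 genes tested at 4 h, 12 h and 24 h were called, beside 5.85%, 2.79% and 1.56% of all genes.

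Of 16 genes of glutamine, glutamate and proline metabolism, 6 rose and 2 fell at 4 h with the lower dose, and the calls were 7 higher and 0 lower at 12 h, and 2 higher at 24 h, where 15 were tested. Of all genes, 17.3%, 17.2% and 11.5% were called higher at the 3 times, so the share at 24 h was near the background. With 80 µg the counts were 5 higher and 2 lower, 8 higher and 0 lower, and 4 higher, beside 18.4%, 17.8% and 12.3% of all genes higher. Lower calls were made for 23.4% and 25.1% of all genes at 4 h and 20.5% and 20.1% at 12 h. Psat1, a serine synthesis enzyme that uses glutamate, had 34.6 ± 6.16 normalised counts in the control, 524 ± 31.2 and 579 ± 17.5 at 4 h, and 396 ± 95.3 and 385 ± 50.1 at 24 h for the lower and the higher dose. At 24 h it was called at both doses (log2 3.49 and 3.44), as was Got2, the mitochondrial aspartate aminotransferase (1.88 and 1.92). The cytosolic enzyme Got1 rose at 4 h with 80 µg (1.91) and at 12 h at both doses (2.37 and 2.67). Of the proline enzymes, Aldh18a1, which makes proline, rose by 1.65 with 0.8 µg at 4 h, and Aldh4a1, which breaks it down, was lower by -2.68 and -2.70. The transcription factors Myc and Atf4, known regulators of several of these carriers, were called higher at 4 h and 12 h at both doses and at 24 h at neither. At 4 h Myc rose by 4.06 with 0.8 µg and 4.43 with 80 µg, and Atf4 rose by 2.12 and 2.19.

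**Figure D4:**
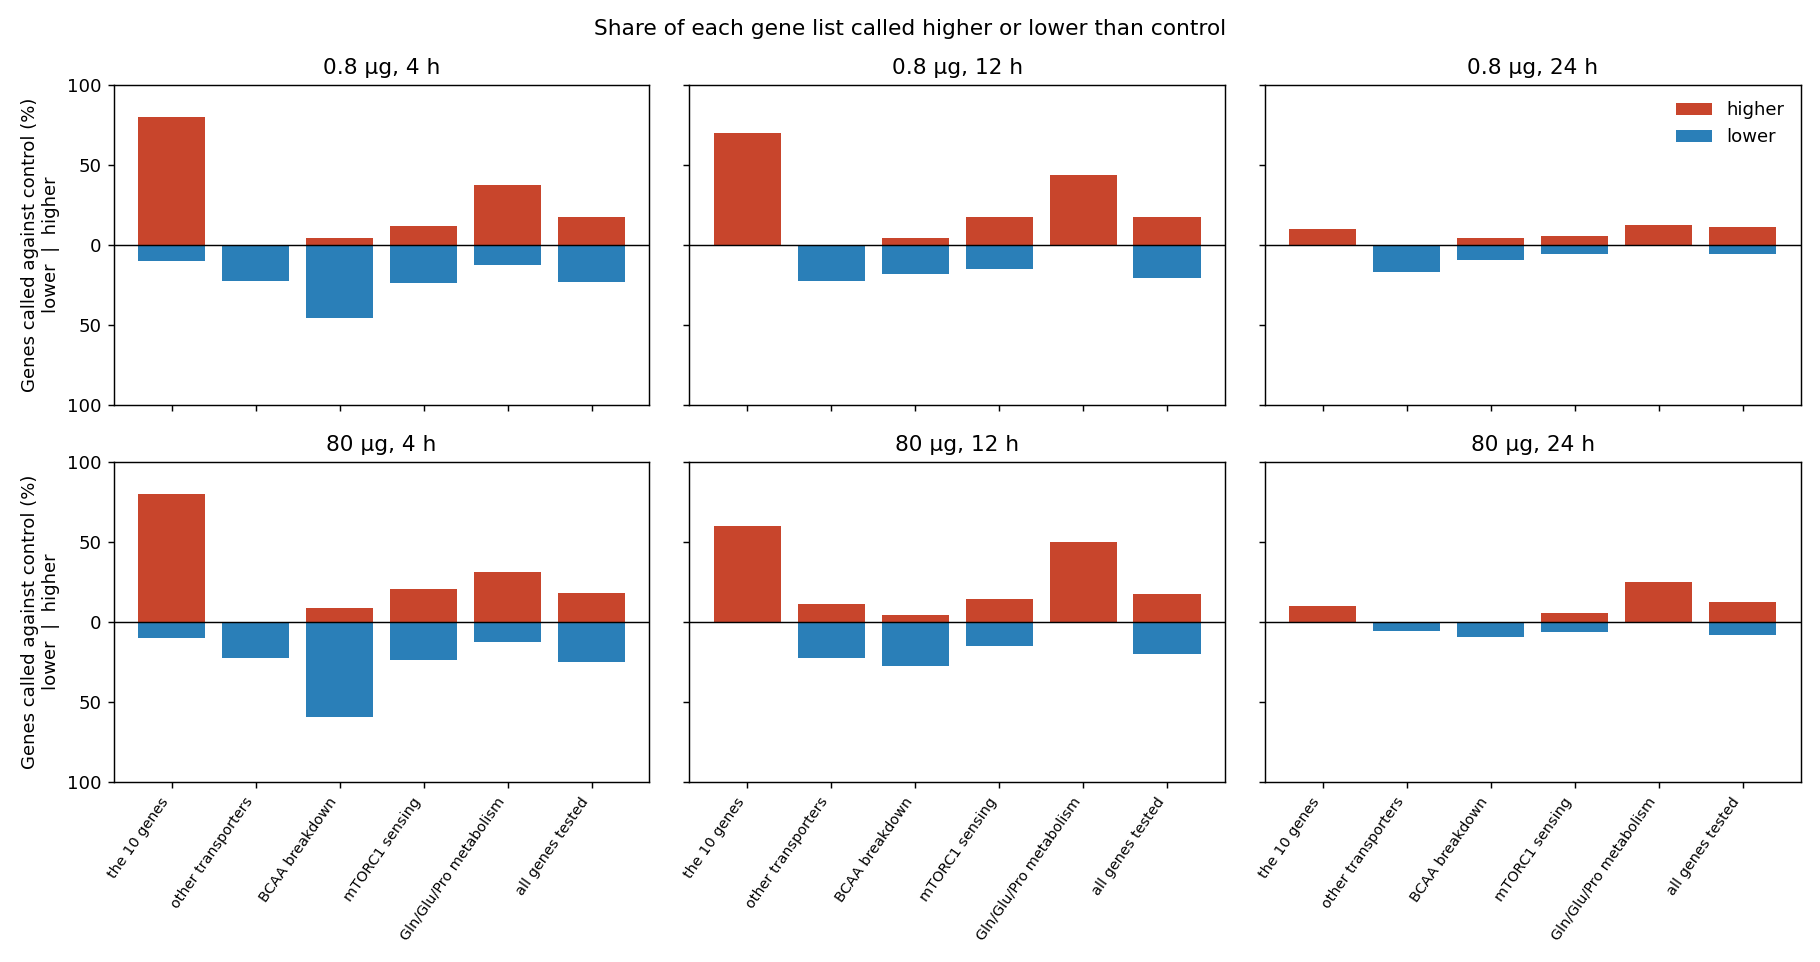
Percent of genes called higher (red, upward) or lower (blue, downward) than the control for the 10 genes, 4 related lists and all genes tested, by dose (rows) and time (columns). List bars are percents of the genes in the table, with or without an adjusted p, and the bar of all genes is of genes tested. The bar of the 10 genes reaches 8 of 10 upward at 4 h at both doses, whereas the breakdown enzymes of branched-chain amino acids (BCAA) point mainly downward, with 10 of 22 lower with 0.8 µg and 13 of 22 with 80 µg.

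The genes whose pattern was most like that of Slc7a5 and Bcat1 were named by the Pearson correlation of the deposited log2 values over the 21 libraries, among the 6625 genes whose mean normalised count reached 50. For Slc7a5 they were Cdv3 (r = 0.979), Mtrr (0.972), Larp1 (0.972), Cluh (0.968) and Rbm34 (0.968). For Bcat1 they were Etf1 (0.989), Eif5a (0.989), Shmt2 (0.989), Aars (0.988) and Psme3 (0.987). Etf1 (a translation termination factor) had 276 normalised counts on average in the control, 1814 and 1934 at 4 h, 1697 and 1668 at 12 h, and 657 and 675 at 24 h with 0.8 µg and 80 µg. The libraries share the steep contrast between 4 h and the control, so correlations of this size describe that shared course and no more.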

How the data were processed

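Per the study's methods, the authors merged reads over lanes, trimmed them with Bbduk, aligned them to GRCm38 (mm10) with STAR 2.5.2a and counted genes with HTSeq-count. The deposited table holds these raw read counts, and a second deposited table holds log2 values (the authors' regularised log from DESeq2), used here for gene names and for likeness of pattern. The annotation release, the strand setting and whether molecular identifiers were counted are not given in the sources used here, and floors cover counting error only.

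Counts were fitted with DESeq2 1.42.0 in R 4.3.3 in one model of the 7 groups over all 21 samples, for genes with at least 10 counts in total, after testing on simulated data. Shrinkage used DESeq2's normal prior, calls needed an adjusted p under 0.05 and a shrunken change past 1, and folds and 95% intervals are unshrunken. The floor was 3 counts. A likelihood ratio test compared dose, time and their interaction with dose and time in 18 samples. Alternatives were edgeR 4.0.16, TMM or library total scaling, other filters, a replicate block, 6-sample fits and leaving out each library. The genes and lists were chosen with earlier results of these data known. Of each related list, up to 2 called genes each way per comparison and a mean normalised count of 20 or more were named by size of change. Outside that rule and after their values were seen, all 4 carriers that fell at 4 h are named, and Ivd, Ppm1k and Sesn1 are given at each dose or time beside the comparison that named them. Gene locations were read from GENCODE vM21, and promoter windows from RefSeq on GRCm38.p6.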

Additional observations from a re-analysis of the deposited data

Results flagged for a closer look

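The effect of dose on Slc3a2 differed between times in the likelihood ratio test of DESeq2 (adjusted p = 0.0476), a pass that was lost in 15 of 24 alternatives (adjusted p up to 0.204). The shrunken log2 difference between 80 µg and 0.8 µg was 0.53 at 4 h, -0.06 at 12 h and -0.21 at 24 h. All 3 libraries with 80 µg were above all 3 with 0.8 µg at 4 h, and the doses overlapped at 12 h and 24 h.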

How the results depend on the processing

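The counts of the 10 genes called kept within 1.5 times of their value with edgeR, TMM or library total scaling, both other filters, unshrunken fold changes, the replicate block and fits to only the 6 samples compared, except for the interaction. With the adjusted p alone, the count at 24 h against the control was 4 in place of 1 at each dose, that between doses at 4 h was 2, and those between times were 7 (0.8 µg, 4 h to 12 h), 9 (0.8 µg, 12 h to 24 h), 8 (80 µg, 4 h to 12 h) and 9 (80 µg, 12 h to 24 h). The interaction count of 1 became 0 with no filter on low counts and 0 with the replicate block, and ranged from 0 to 2 when single libraries were left out. The adjusted p of Slc3a2 was 0.0533 with no filter, 0.0847 with the replicate block and 0.0816 with library total scaling, and Bcat1 had 0.0221 with the last and 0.0105 without replicate 3 of the 80 µg 24 h group. Leaving out a library gave 8 to 9 genes called at 4 h against the control at each dose, 6 to 7 at 12 h at each dose, 2 to 3 (0.8 µg) and 4 to 5 (80 µg) from 4 h to 12 h, and 4 to 5 at each dose from 12 h to 24 h. The cause of these changes was not tested. Under the alternatives run here, no difference of the 10 genes that passed an adjusted p changed sign, and in 23 of 130 gene comparisons a value that passed under neither setting did. Library total scaling, chosen after seeing the data, moved the median of all genes by -0.15 at 4 h with 0.8 µg and -0.21 at 24 h with 80 µg against the control. Little sign was found that replicate numbers pair the samples, though such a check cannot exclude pairing. Of 63 same-numbered pairs from different groups, 6 had correlated deviations over 0.1, with a median of 0.0065. By mean correlation, 9 of 21 samples were closest to their own number. With 3 mice a group, low counts limit Slc1a4 and Bcat2, and also Bcat1 against the control, where it had at most 2 counts.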
